A study of Sus scrofa with 6 samples.

Results

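The miRNAs miR-21, miR-29a, miR-29b and miR-29c are the best known regulators of cardiac fibrosis among the small RNAs on the pig array. They were taken by name from the probe list, as ssc-miR-21, ssc-miR-29a, ssc-miR-29b and ssc-miR-29c, and these 4 were the only probes with such a name out of 322 pig miRNA probes. The samples were left atria (LA) of 6 pigs, with 1 array per animal. The sham group (labelled sham-control, n = 3) had no burst pacing. The paced group (labelled PAF, n = 3) received 3 bursts of rapid right atrial pacing through a catheter, which set off brief self-terminating atrial fibrillation, and the beta blocker esmolol was given before pacing. LA tissue was taken on the day after pacing. The animals were Large White pigs, 3 months old in the methods but neonatal piglets in the labels. Whether the sham animals also received esmolol is not given in the sources used here. The comparison asks whether brief fibrillation changes these miRNAs in the LA within about a day. Whole tissue was measured, so fewer cells of a type and less of a miRNA per cell cannot be told apart.

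A miRNA binds messenger RNAs mainly through its seed, bases 2 to 8 from the 5′ end, and lowers their stability and translation. In the heart, miR-21 is known from fibroblasts, where it represses SPRY1, a brake on ERK signalling. The miR-29 family acts the other way, because its targets are matrix genes such as the fibrillar collagens, elastin and fibrillin, and TGF-beta is known to lower it. In the RefSeq gene table of the Sscrofa11.1 assembly, MIR29B-1 is the direct neighbour of MIR29A and MIR29B-2 is the direct neighbour of MIR29C. Both genes give the same mature miR-29b, so that 1 probe reads the product of both clusters. MIR21 lies between PTRH2 and TUBD1 in that table, which has no entry for the gene VMP1, so an overlap with VMP1 could not be read from it.

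The target sequences deposited for the 4 probes are shown because the family members differ by few bases. Capitals mark the 7 seed letters of each family.
miR-21: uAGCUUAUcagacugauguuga
miR-29a: cuAGCACCAucugaaaucgguua
miR-29b: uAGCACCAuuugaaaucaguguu
miR-29c: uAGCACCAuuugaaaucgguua
In miR-21, miR-29b and miR-29c the capitals are bases 2 to 8. The miR-29a target as deposited begins 1 base earlier, so the same letters are its bases 3 to 9. No other probe on the array shares the seed of miR-21, and 1 further probe outside the family holds the letters AGCACCA, away from its 5′ end (4 of 322 probes in all). Without its leading base, miR-29a differs from miR-29c by the single substitution C10U, with positions counted from the 5′ end of miR-29c. The targets of miR-29b and miR-29c share their first 17 bases and differ only at the 3′ end. Outside the family no probe came closer than 8 base changes to any of the 4 targets. How far the 3 family probes also bind each other's targets was not tested.

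Each array carried 9 repeat spots per probe and 786 empty spots, and the median signal of the empty spots was from 64.7 to 214.1 scanner units in sham and from 242.5 to 399 in paced animals. A probe counted as well above background where its repeat spots had a median over 3 SD higher than the empty-spot median, and 104 of 322 probes met this on all 6 arrays. Paced replicate 1 stood apart, with the highest empty-spot signal and the fewest probes well above background (104, against up to 175 on the other arrays). Known markers were used to check for heart muscle, and they do not tell the LA from other heart tissue. Of 7 cardiomyocyte probes (miR-1, miR-133a, miR-133b, miR-208b, miR-499), 5 were well above background on all arrays, and of 4 probes for liver and nervous tissue (miR-122, miR-124a, miR-9, miR-9-1) all 4 were so on none. Values below are normalized log2 intensities unless stated otherwise, and they are compared for 1 probe across animals, not between probes.

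miR-21 (ssc-miR-21) was well above background in all 6 animals, at 14.8 to 76.8 times the empty-spot median. Its log2 value was 12.28, 12.37 and 12.23 in sham replicates 1, 2 and 3. Among the paced animals, in the same order, it was 12.99, 11.95 and 13.05. Thus 2 paced animals lay above every sham animal and 1 paced animal lay below every sham animal. Against the sham mean, the paced animals stood at 1.62-fold, 0.788-fold and 1.69-fold. The mean was 12.30 ± 0.07 (SD, n = 3) for sham and 12.67 ± 0.62 (SD, n = 3) for paced animals, and the difference of 0.37 (SE 0.28) did not exceed the spread among paced animals. As a fold change this was 1.29, with a 95% interval from 0.809 to 2.06, so a doubling and a modest decrease are both within it. The deposited processed intensities of miR-21 were 4969, 5200 and 4650 in the sham and 7486, 4186 and 8639 in the paced replicates, again with 2 paced animals above and 1 below all sham animals.

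miR-29a (ssc-miR-29a), the member encoded beside the MIR29B-1 gene, showed no difference between the groups beyond the spread of either. Its log2 value was 12.33, 12.05 and 11.80 in sham replicates 1, 2 and 3, and 12.07, 12.34 and 11.88 in paced replicates 1, 2 and 3. The paced animals thus spanned nearly the same range as the sham animals. The means were 12.06 ± 0.26 and 12.10 ± 0.23 (SD, n = 3 each). The fold change was 1.03 (95% interval 0.780 to 1.35), the narrowest interval among the 4 miRNAs.

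miR-29b (ssc-miR-29b) was the only one of the 4 that was not detected in every animal. It was well above background in all 3 sham animals and in 2 of 3 paced animals. In paced replicate 1 its scanner signal of 394 units lay just under the empty-spot median of 399, so its level there is only bounded from above by the background. The same calls were made when each spot was compared with the 15 nearest empty spots. Its log2 value was 8.25, 8.20 and 8.05 in sham replicates 1, 2 and 3. Among the paced animals it was 7.62, 9.28 and 8.88 in this order, the first of these being the value at background. In paced replicates 2 and 3 it thus stood at 2.16-fold and 1.64-fold of the sham mean, above every sham animal. The sham mean was 8.17 ± 0.10 and the paced mean 8.59 ± 0.86 (SD, n = 3 each). The fold change of 1.35 had a 95% interval from 0.704 to 2.57, which also covers both a decrease and a doubling. This value depended on the scaling. When each array was scaled by the median of its detected probes, miR-29b differed by 0.87 in log2 value (SE 0.20, limma, adjusted p = 0.000223). Under that scaling the median of all probes also shifted by 0.53, and 56.5% of all probes passed the adjusted threshold. There limma gave all 4 miRNAs the same SE of 0.20, so this SE does not reflect the spread of miR-29b itself.

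miR-29c (ssc-miR-29c), encoded beside the MIR29B-2 gene, was well above background in all animals. Its log2 value was 11.95, 11.65 and 11.70 in sham replicates 1, 2 and 3, and 11.07, 12.32 and 11.76 in paced replicates 1, 2 and 3. Paced replicate 1 was the lowest of the 6 animals and paced replicate 2 the highest, while paced replicate 3 lay among the sham animals. The means of 11.77 ± 0.16 and 11.72 ± 0.63 (SD, n = 3 each) gave a fold change of 0.967 (95% interval 0.594 to 1.58). In the processed intensities, miR-29c was at 3729, 2960 and 3210 in sham and at 2077, 5028 and 3410 in paced replicates.

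**Figure D1:**
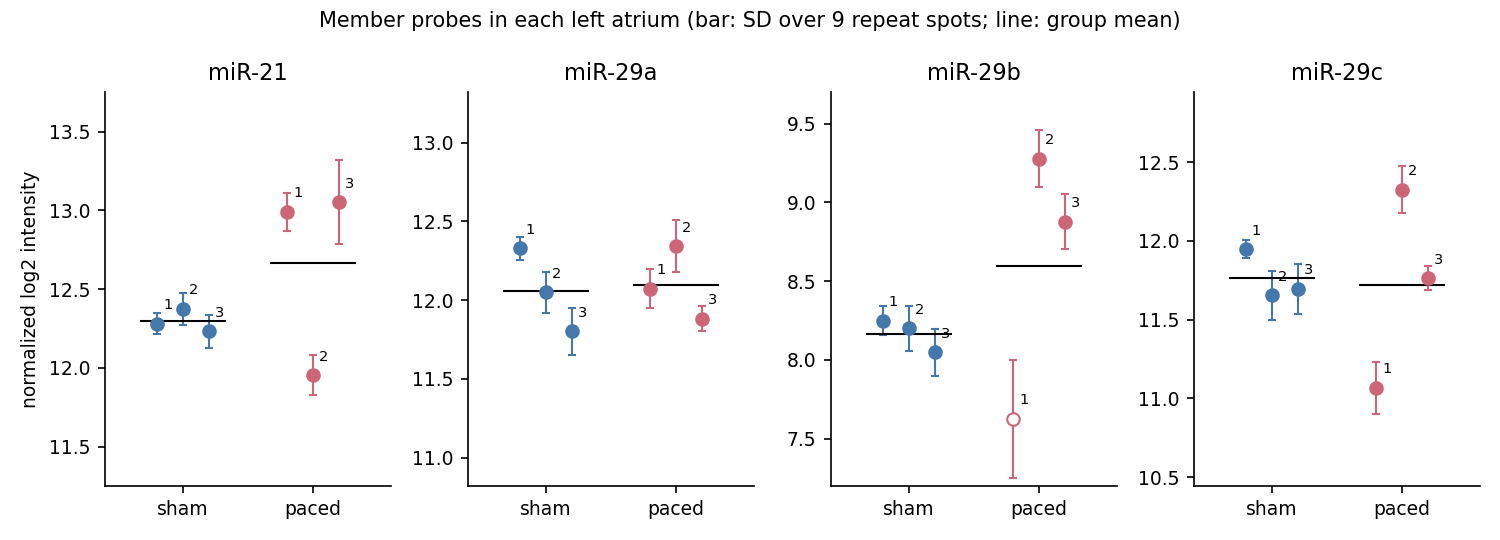
Normalized log2 intensity (y axis, the same span of log2 units in each panel) of the 4 miRNAs in each sham and paced animal, numbered by replicate, with bars for the SD over the 9 repeat spots, lines for group means and an open symbol where the probe was not well above background. The 3 sham animals lie close together for miR-21 and miR-29b, and the paced animals lie on both sides of them.

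In the comparison of paced with sham animals by limma over all 322 probes, 0 of the 4 miRNAs reached an unadjusted p of 0.05, against 10.6% of all probes. None had paced and sham values without overlap, against 17.4% of all probes, and the share of all probes with an adjusted p under 0.05 was 0%. The differences in log2 value and adjusted p values of limma were 0.37 (SE 0.28, adjusted p = 0.670) for miR-21, 0.04 (SE 0.17, adjusted p = 0.938) for miR-29a, 0.43 (SE 0.39, adjusted p = 0.739) for miR-29b and -0.05 (SE 0.30, adjusted p = 0.964) for miR-29c. The exact permutation test (two-sided) of each single difference gave p = 0.4, 0.7, 0.4 and 1 in the same order, where 3 animals against 3 cannot give less than 0.1. None of the 4 can be called equal between the groups, since each interval includes changes in both directions.

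**Figure D2:**
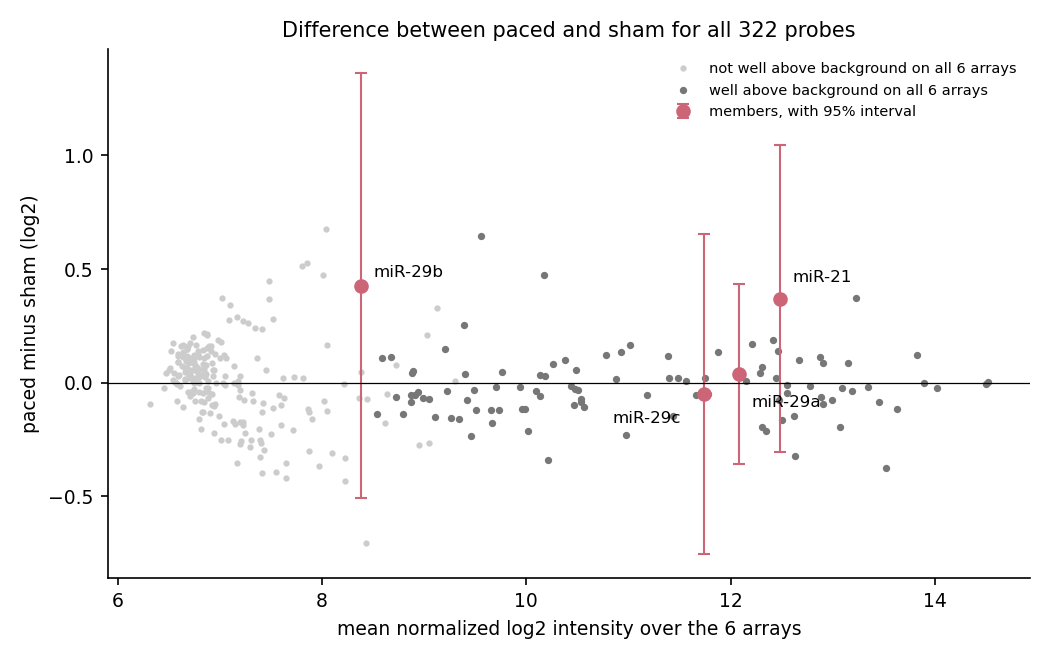
Difference between paced and sham means (y axis, log2) against the mean normalized log2 intensity over the 6 arrays (x axis) for all 322 probes, with the 4 miRNAs in colour and their 95% intervals from limma. All 4 intervals include 0, and the interval of miR-29a, from -0.36 to 0.44, is the narrowest of the 4.

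The paced animals differed from each other more than the groups did. The SD among paced animals was 0.62 for miR-21, 0.86 for miR-29b and 0.63 for miR-29c, against 0.07, 0.10 and 0.16 among sham animals. For the 104 probes detected above background in every animal the median SD was 0.17 in paced and 0.13 in sham animals. When the 4 miRNAs were ranked by their paced SD against these probes, miR-29b, miR-29c and miR-21 took places 1, 2 and 3, and miR-29a took place 33. By the sham SD they took places 63, 37 and 83, and miR-29a place 7. These places describe the arrays and were not tested. The paced SD and the place of miR-29b rest on the value at background in paced replicate 1, and its values in paced replicates 2 and 3 were 0.40 apart. The repeat spots of 1 array had a median SD of 0.11 for miR-21, 0.13 for miR-29a, 0.16 for miR-29b and 0.15 for miR-29c. It was largest for miR-29b in paced replicate 1, at 0.37, where the probe was at background.

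Between paced replicates 1 and 2, miR-21 ran in the opposite direction to miR-29b and miR-29c. For replicate 2 minus replicate 1, the difference in log2 value was -1.04 for miR-21, 1.26 for miR-29c and 1.65 for miR-29b, the last against a value at background. The median absolute difference between these animals over the 104 probes was 0.22. A difference of more than 1 log2 unit was found for 3 of them, miR-29c (1.26), miR-1 (1.08) and miR-21 (-1.04), so that miR-29c had the highest and miR-21 the lowest value of all 104. miR-29a followed its family weakly, with 0.27. Paced replicate 3 shared the high miR-21 of replicate 1 and the high miR-29b of replicate 2, and its miR-29c was at 0.997-fold of the sham mean. In terms of base composition miR-21, miR-29b and miR-29c were alike, with 36.4%, 34.8% and 36.4% G and C against a median of 47.6% over the 104 probes, and the part of base composition in the difference was not tested. Paced replicate 1 is also the array with the highest empty-spot signal, whose part was not tested either.

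**Figure D3:**
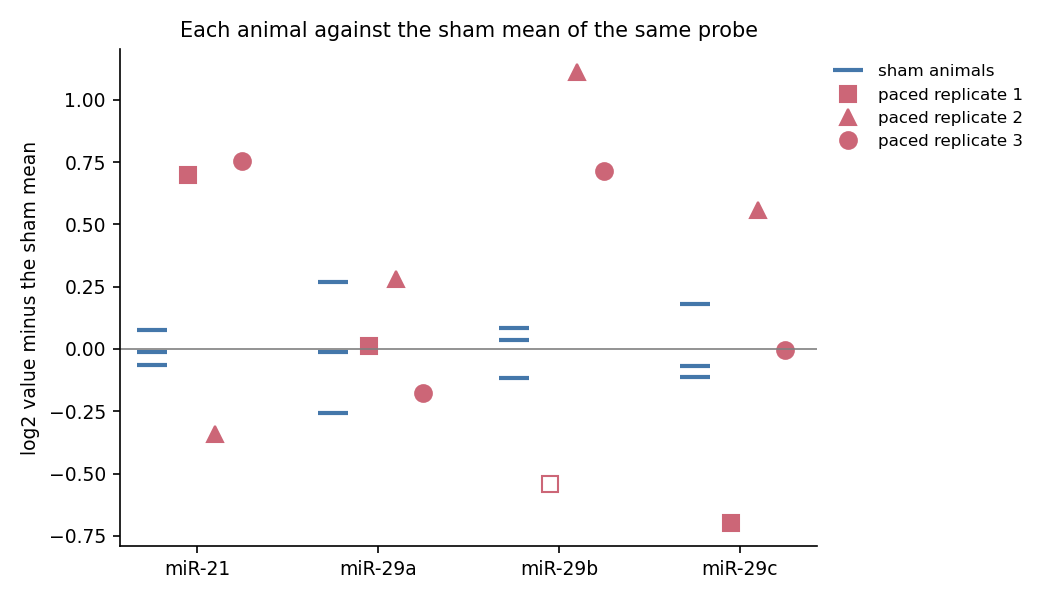
Log2 value of each animal minus the sham mean of the same probe (y axis) for the 4 miRNAs, with sham animals as dashes and the paced animals as symbols, open where the probe was not well above background. Paced replicate 2 is lowest for miR-21 and highest for each of the 3 miR-29 probes, and paced replicate 1 is lowest for miR-29b and miR-29c.

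Which animals were compared decided the calls for miR-21 and miR-29b. Without paced replicate 2 miR-21 differed by 0.73 (SE 0.08, limma, adjusted p = 0.0413), and miR-21 was then the only probe under the adjusted threshold (0.311% of 322). With any of the other animals left out it lay between 0.18 and 0.40, and its adjusted p was between 0.689 and 0.977. Without paced replicate 1, where miR-29b was not measured above background, the difference of miR-29b was 0.96 (SE 0.14, limma, adjusted p = 0.0150), and 9 probes were under the threshold (2.8%). Without paced replicate 2 it fell to 0.08. The difference of miR-29c was 0.28 without paced replicate 1 and -0.34 without paced replicate 2. That of miR-29a lay between -0.09 and 0.17 over all 6 omissions. The adjusted p values do not account for the choice among these omissions. Paced replicate 2 was the paced animal whose miR-21 lay below every sham animal, so leaving it out necessarily raised the difference of miR-21.

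**Figure D4:**
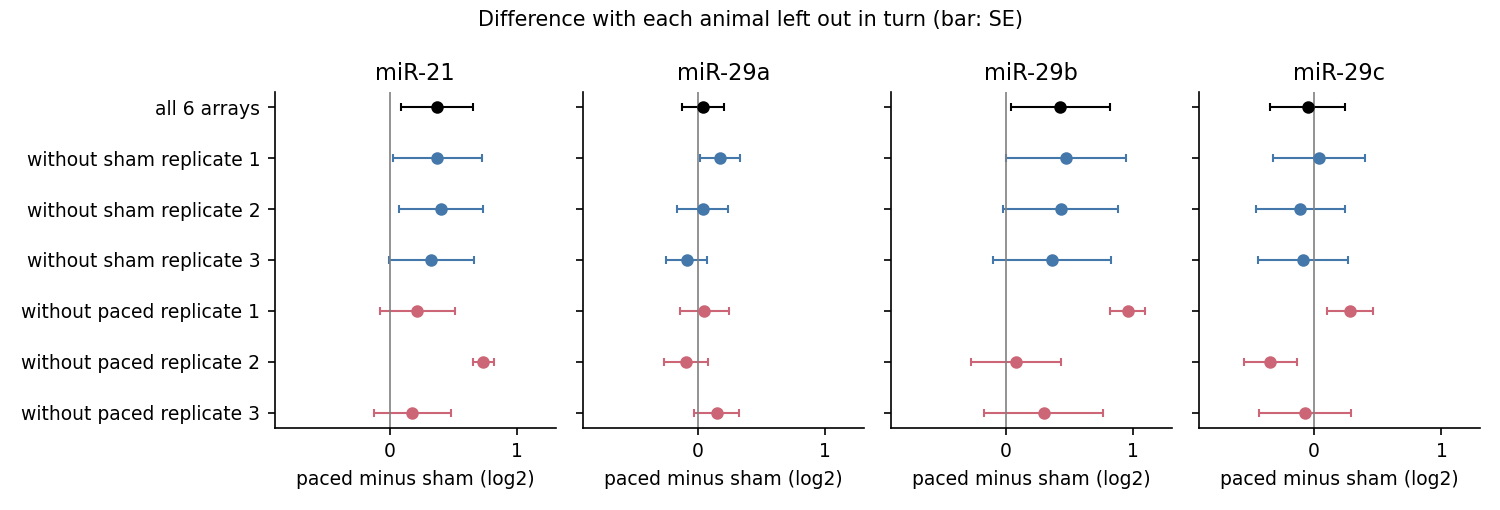
Paced minus sham difference (x axis, log2, with bars for the SE) of the 4 miRNAs over all 6 arrays and with each animal left out in turn (y axis). The values of miR-21 and miR-29b move most when paced replicate 2 or paced replicate 1 is left out, to 0.73 for miR-21 and to 0.96 for miR-29b.

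A ratio of probes within an array shows whether a pair of miRNAs changed unequally, and it does not move when a whole array is multiplied by a constant, although quantile normalization can move it. The log2 ratio of miR-21 to miR-29c, a profibrotic over an antifibrotic miRNA, was 0.33, 0.72 and 0.54 in sham replicates 1, 2 and 3. Among the paced animals it was 1.93, -0.37 and 1.29 in this order. In 2 paced animals it thus exceeded every sham animal and in 1 it was the lowest of all. The difference in mean ratio of 0.42 (SE 0.69) had p = 0.6 in the exact permutation test (two-sided). For miR-21 to miR-29a the mean ratio differed by 0.33 (SE 0.50, exact permutation p = 0.5), and for miR-21 to miR-29b by -0.06 (SE 0.78, exact permutation p = 0.8). The ratio of miR-21 to miR-29b ranged over 0.15 log2 units in sham and over 2.69 in paced animals.

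Within the miR-29 family, the ratio of miR-29b to miR-29c, as computed, was the only one of the 6 ratios without overlap between the groups. Over all single probes the share without overlap was 17.4%. It was -3.70, -3.45 and -3.65 in the sham and -3.44, -3.05 and -2.88 in paced replicates 1, 2 and 3, where only its changes can be read and not its level. The difference was 0.48 (SE 0.18). The exact permutation test gave p = 0.1, the smallest possible here, and 0.6 after adjustment over the 6 ratios. The ratio in paced replicate 1 rests on a miR-29b signal at background, so it is bounded only from above. It lay just over the highest sham ratio (-3.44 against -3.45), so an absence of overlap is not established. With no normalization, or with a constant scaling of each array, the difference was 0.88 (exact permutation p = 0.1). There the median of all probes also shifted, by 0.27 with no normalization and by 0.53 with scaling to the median of the detected probes. The difference of the brighter miR-29c was -0.27 and -0.004 in these 2 settings. The part of this shift in the ratio was not tested. With plain subtraction of the background the difference in the ratio was 0.47 (exact permutation p = 0.4). For miR-29a to miR-29b the difference was -0.39 (SE 0.48, exact permutation p = 0.4), and for miR-29a to miR-29c it was 0.09 (SE 0.33, exact permutation p = 0.9).

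The probes with the most similar course over the 6 animals were sought among the others of these 104 probes, by the root mean square difference of log2 values after centring each probe on its own mean. For miR-21 these were miR-222 (0.28), miR-146a-5p (0.29) and miR-1307 (0.30), all at a distance not far below the median of 0.42 over the probes compared. miR-146a-5p, known as a brake on inflammatory NF-kappaB signalling, had log2 values of 8.90, 8.61 and 8.34 in sham and 9.18, 8.31 and 8.71 in paced replicates. As for miR-21, paced replicate 2 was the lowest animal. For miR-29a the closest were miR-181c (0.08), miR-19b (0.14) and miR-126-3p (0.15), against a median of 0.25. For miR-29c they were miR-15a (0.16), miR-195 (0.18) and miR-30a-5p (0.19), against a median of 0.43. miR-15a and miR-195 share a seed with each other and are known for limiting the division of heart muscle cells, and both had their lowest value in paced replicate 1 and their highest in paced replicate 2. For miR-29b the closest were the muscle miRNA miR-1 (0.24), miR-148a-3p (0.25) and miR-15a (0.28), against a median of 0.60. Within the family, miR-29b and miR-29c were 0.30 apart, miR-29a and miR-29c 0.33, and miR-29a and miR-29b 0.52.

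Other miRNAs known to act on fibroblasts, matrix or TGF-beta signalling are carried by 31 further probes, taken by name with any arm. Among them 3 were lower in paced animals at an unadjusted p of 0.05 in limma (against 7.14% of all probes) and 0 were higher (3.42% of all probes), and 0 passed the adjusted threshold. The same 3 were the only ones without overlap between the groups and all lower, against 10.2% of all probes. They were miR-24-2-5p, miR-30c-3p and miR-30c-1-3p. Neither miR-30c-3p nor miR-30c-1-3p rose well above background in any animal, and miR-24-2-5p was so on 3 of 6. The arms of these miRNAs that were well above background in every animal showed no such decrease. Their difference was 0.12 (SE 0.12, limma, adjusted p = 0.75) for miR-24-3p and -0.07 (SE 0.08, limma, adjusted p = 0.75) for miR-30c-5p. The probe of miR-24-2-5p differed by -0.39 (SE 0.09, limma, adjusted p = 0.134). The median difference of the 31 probes was -0.03, against 0.00 over all probes. The largest difference was that of miR-146b, at 0.45 (SE 0.43, limma, adjusted p = 0.740). That probe is also among the leukocyte markers.

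Because miR-21 is expressed by fibroblasts and blood cells as well as by muscle, markers of these cells were set beside it. All 5 fibroblast probes (both arms of miR-199a and miR-199b, and miR-214) exceeded the background in every animal. Their summed intensity, on the log2 scale, was from 14.48 to 14.61 in sham animals and 14.68, 14.37 and 14.46 in paced replicates 1, 2 and 3. The 5 leukocyte probes were mostly dim, with 0 well above background on all arrays and 3 on none. Their summed level was from 9.47 to 9.57 in sham animals and 9.55, 9.43 and 10.14 in paced replicates. Paced replicate 3 stood out through miR-146b, at 8.81 against 7.08 to 7.35 in the 5 other animals, and had the highest miR-21. Paced replicate 1, with nearly as much miR-21, did not share it. The summed level of the 7 cardiomyocyte probes is mostly that of miR-133a-3p and miR-133b, the 2 brightest probes of the array, whose normalized values are held nearly constant by quantile normalization, so it was not read as a level of muscle. The muscle miRNA miR-1 was at 12.97, 12.96 and 13.20 in the sham and 12.62, 13.70 and 13.93 in the paced replicates, lowest in paced replicate 1, as were miR-29b and miR-29c. Of the 3 red blood cell probes 1 was lower at an unadjusted p of 0.05, as was 1 of the 4 smooth muscle probes (against 7.14% of all probes), and 1 of the 2 endothelial probes was higher (against 3.42%), with 0 past the adjusted threshold. The difference was -0.70 (SE 0.16, limma, adjusted p = 0.134) for miR-486 of the red blood cell list and -0.32 (SE 0.10, limma, adjusted p = 0.323) for miR-143-3p of smooth muscle. The paper gives mouse skeletal muscle as a reported site of miR-486, so this probe need not read red blood cells alone. The endothelial probe was miR-126-5p, which was at background in all animals, while miR-126-3p, well above background in all, differed by -0.02 (SE 0.10, limma, adjusted p = 0.935). The summed level of the red blood cell probes was from 13.57 to 14.06 in sham animals and 13.56, 13.01 and 13.59 in paced replicates, lowest in the animal with the lowest miR-21. This sum is mostly that of the bright miR-451. The dimmer miR-486 was at 7.88, 8.20 and 8.16 in paced replicates 1, 2 and 3, so that replicate 2 was the highest paced animal for it. Of 4 smooth muscle probes miR-143-3p was lower (-0.32, SE 0.10, limma, adjusted p = 0.323), and of 2 endothelial probes miR-126-5p, at background in all animals, was higher (0.37, SE 0.13, limma, adjusted p = 0.357). The part of cell composition in the values of miR-21 and the miR-29 family was not tested.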

How the data were processed

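Total RNA of 6 LA samples was hybridised to 1-colour (Cy3) pig miRNA arrays, 1 per animal. The deposited scanner files hold 1 intensity per spot on a linear scale, with no background subtracted. The authors also deposited a table of processed intensities, whose lowest values lie under the empty-spot signal and whose background correction and normalization are not given in the sources used here.

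Groups were taken from the labels (sham n = 3, paced n = 3). Each sample is labelled as a separate animal sample, and the small number of arrays limits the precision. Scanner intensities were corrected with normexp (offset 50), fitted to the intensities of all spots of each array without a separate background value. They were then quantile normalized in limma 3.58.1 (R 4.3.3), after which the 9 repeat spots were averaged as log2 values. All 322 probes were fitted by lmFit and eBayes with Benjamini-Hochberg adjustment (threshold 0.05), and p values of ratios are from exact permutation tests over the 20 assignments, two-sided. The scripts were tested on simulated data. Figures were drawn with matplotlib 3.10.9 in Python 3.11.15.

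The miRNAs described and the lists of fibrosis-linked and cell type miRNAs were chosen with earlier results of these data known. Probes named are the 4 miRNAs, the 3 closest in profile to each, those with the largest differences in each list (up to 2), and those behind counts of 5 or fewer. Alternatives changed the background correction, the normalization, the filter on dim probes, the summary of repeat spots, the test (including that named in the methods), the replicate block and the animals included. The settings for miR-29c and its ratios were added after seeing the data.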

Additional observations from a re-analysis of the deposited data

How the results depend on the processing

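Leaving out 1 animal turned the direction of miR-29a, miR-29c and 3 of the 6 ratios. Over the omissions of 1 animal the difference (log2) ran from 0.18 to 0.73 for miR-21, from -0.094 without paced replicate 2 to 0.17 for miR-29a (-0.088 without sham replicate 3), from 0.079 to 0.96 for miR-29b and from -0.34 to 0.28 for miR-29c (above 0 without sham replicate 1 at 0.039 and without paced replicate 1 at 0.28). The ratio of miR-21 to miR-29b ran from -0.74 to 0.65, above 0 only without paced replicate 2, and that of miR-21 to miR-29c from -0.066 to 1.08, below 0 only without paced replicate 1. The ratio of miR-29a to miR-29c ran from -0.23 without paced replicate 1 to 0.25, and was -0.0033 without sham replicate 3. miR-29a turned to -0.036 with scaling to the 5S rRNA spots and to -0.19 without normalization. miR-29c turned to 0.021 with cyclic loess, to 0.0023 on the log2 scale of the processed values and to 205 units in the methods' t-test on them. miR-29b passed the threshold at 0.87 with scaling to the median of the detected probes, beside a shift of 0.53 in the median of all probes. The count of probes at an unadjusted p of 0.05 in limma was 34, and it was 191 with that scaling, 119 with the 5S rRNA spots, 15 without normalization, 5 with the filter on dim probes and from 19 to 67 over the omissions. The cause of these changes was not tested. Same-numbered sham and paced animals had correlations of deviations of 0.17, -0.01 and 0.21, not every animal correlated best with its own number, and the numbers were not taken as pairs. With the replicate number as a block (replicate block) miR-21 kept its difference of 0.37 (SE 0.26, limma, adjusted p = 0.637), no call of the 4 miRNAs changed, and the count was 33. The other settings changed neither direction nor call of the 4 miRNAs.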
